A study of Mus musculus with 4 samples.

Results

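The hair follicle stem cell markers described here are 10 genes chosen by symbol, Lgr4, Lgr5, Lgr6, Lrig1, Cd34, Sox9, Lhx2, Nfatc1, Tbx1 and Tcf7l1. All 10 were found among the 54532 genes of the count table. They were measured by RNA sequencing in epidermal stem cells of C57BL/6 mouse skin, kept in EpiLife medium with HKGS supplement. The ALP group (n = 2 libraries) had received 30 μg/mL ALP for 48 h, an abbreviation taken to mean the polysaccharide of burdock, Arctium lappa L., that the series is named for. The control group (n = 2 libraries) had received the vehicle, 0.06% DMSO, for 48 h. Libraries are called A and B within each group, with no pairing meant. Whether replicates were grown or isolated separately is unsaid in the labels, so the p-values reflect a spread that may be purely technical. The labels also leave unsaid whether ALP cultures contained DMSO and how the cells were selected from skin.

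Hair follicles are renewed by several pools of epithelial stem cells. The bulge of the mouse follicle holds slow-cycling cells marked by CD34, the hair germ below it and the lower bulge hold LGR5 cells, and the isthmus and junctional zone above it hold LGR6 and LRIG1 cells. LGR4, LGR5 and LGR6 are receptors for R-spondins, secreted proteins that raise Wnt signalling by removing the ubiquitin ligases RNF43 and ZNRF3 from the cell surface. SOX9, LHX2, NFATC1, TBX1 and TCF7L1 are transcription factors with known roles in specifying bulge cells or in keeping them quiescent and self-renewing.

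Total gene counts ranged from 15766244 to 17430345 per library. Libraries of the same group differed by more than counting noise, with a chi-square per degree of freedom of 22.4 between the ALP libraries and 5.92 between the controls, so none was a repeat of another. Markers of basal keratinocytes were abundant in all libraries, with Krt14 at 14324 and 11170 CPM in ALP and at 18985 and 19151 CPM in control. CPM is the count per 1000000 counts of a library, scaled by the TMM method.

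Promoter sequence is shown for marker genes that changed in both directions, the receptor gene Lgr4 and the transcription factor gene Lhx2, which were lower in ALP, and Lrig1 and Cd34, which were higher. Each run is the 250 bases before the annotated start, 5′ to 3′ on the gene's strand, from RefSeq on GRCm38.p6. Capitals mark matches on either strand to 3 short motifs, CTTTGA (TCF/LEF factors, the family of Tcf7l1), ACAATG (SOX factors) and GGAAA (NFAT factors).
Lgr4 (chr2:109917397-109917646, plus strand): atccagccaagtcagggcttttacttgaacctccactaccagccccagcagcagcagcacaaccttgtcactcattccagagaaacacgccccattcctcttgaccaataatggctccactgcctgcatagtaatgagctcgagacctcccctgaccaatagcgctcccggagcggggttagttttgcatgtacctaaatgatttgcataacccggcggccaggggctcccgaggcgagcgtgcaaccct
Lhx2 (chr2:38339031-38339280, plus strand): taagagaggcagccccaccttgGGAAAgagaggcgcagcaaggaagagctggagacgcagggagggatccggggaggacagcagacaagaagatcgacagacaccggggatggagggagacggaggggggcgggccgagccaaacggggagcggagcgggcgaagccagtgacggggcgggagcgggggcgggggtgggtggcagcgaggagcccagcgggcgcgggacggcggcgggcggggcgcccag
Lrig1 (chr6:94700146-94700395, minus strand): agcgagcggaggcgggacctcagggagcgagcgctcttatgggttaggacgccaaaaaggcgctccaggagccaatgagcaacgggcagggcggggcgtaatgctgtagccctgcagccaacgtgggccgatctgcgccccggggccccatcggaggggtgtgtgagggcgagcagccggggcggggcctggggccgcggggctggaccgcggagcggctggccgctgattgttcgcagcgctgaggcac
Cd34 (chr1:194938571-194938820, plus strand): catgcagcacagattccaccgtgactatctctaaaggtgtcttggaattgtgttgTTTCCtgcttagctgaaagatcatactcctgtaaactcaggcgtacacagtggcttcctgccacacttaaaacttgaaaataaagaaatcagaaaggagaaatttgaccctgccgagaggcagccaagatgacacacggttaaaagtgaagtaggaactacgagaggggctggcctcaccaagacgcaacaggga
Among these 4 windows, Lhx2 and Cd34 each held 1 NFAT match, a motif present in 55.6% of 32851 promoter windows of the same length. None of the 4 held the TCF/LEF letters, found in 13.8% of all windows, or the SOX letters, found in 10.7%. Of windows not shown, that of Lgr6 held 1 SOX and 1 NFAT match. A second annotated start of Lhx2 held 1 NFAT match, and the windows of Tbx1 and Tcf7l1 held no match. The Cd34 window had a GC content of 46.4% and 6 CpG dinucleotides, against 72.8% and 25 for Lhx2, 71.6% and 26 for Lrig1, 55.6% and 10 for Lgr4 and medians of 52.4% and 6 over all windows. Such a match is a description of letters and not of a bound site. Windows were read for 7 of the 10 genes, as Nfatc1 was left out and Lgr5 and Sox9 had no RefSeq entry.

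The markers covered a wide range of levels. They are given in RPKM, which are counts per kilobase of the deposited gene length and per 1000000 counts of the library, and can be compared between genes. In ALP cells Lrig1, whose protein restrains ErbB receptors, led with 37.7 ± 2.32 RPKM, above Sox9 with 30.4 ± 0.781 RPKM, and Lgr4 followed with 10.5 ± 4.57 RPKM (SD, n = 2 each). Tcf7l1 with 3.49 ± 0.686, Nfatc1 with 3.40 ± 1.26, Lhx2 with 3.02 ± 0.717 and Tbx1 with 2.48 ± 1.90 RPKM overlapped as neighbours in ALP libraries, as did the lowest genes, Cd34 with 0.380 ± 0.115, Lgr6 with 0.306 ± 0.0529 and Lgr5 with 0.254 ± 0.123 RPKM.

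In control cells the order differed, and Sox9 led with 32.7 ± 1.67 RPKM (SD, n = 2). Lrig1 followed with 22.6 ± 6.46 RPKM, and Lgr4 with 22.1 ± 2.01 RPKM, and these neighbours overlapped. Below them stood Tbx1 with 9.95 ± 0.891, Nfatc1 with 8.28 ± 0.759, Lhx2 with 5.95 ± 0.171, Tcf7l1 with 4.91 ± 0.26, Lgr5 with 1.19 ± 0.14 and Lgr6 with 0.269 ± 0.0113 RPKM, each in control libraries and with no overlap between neighbours. Cd34 had 0 RPKM in control replicate A and 0.0395 RPKM in control replicate B. The bulge surface marker was thus close to undetected in vehicle-treated cells. The name of the set refers to what these genes mark in skin, and the share of cultured cells that carry each transcript was not measured.

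**Figure D1:**
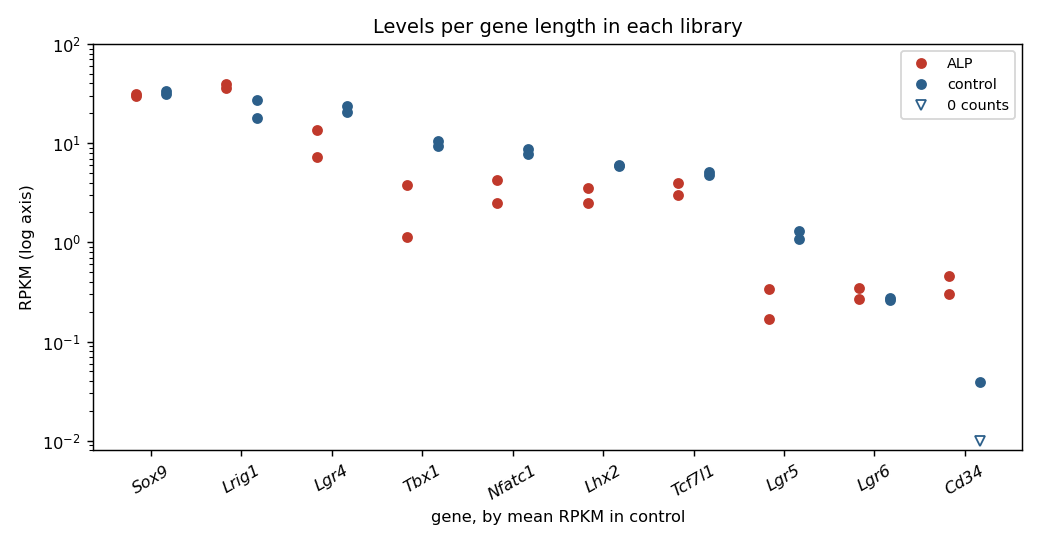
RPKM on a log axis of each marker gene in each library, with ALP left of control and genes ordered by their mean in control; points are libraries, and the open triangle is the control library with 0 counts of Cd34. Sox9 averaged 30.4 RPKM in ALP and 32.7 RPKM in control, while Lgr5 averaged 0.254 RPKM in ALP and 1.19 RPKM in control.

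The comparison of ALP with control asks whether transcripts of follicle stem cell genes moved under a treatment studied for its effect on proliferation. By edgeR's quasi-likelihood test with Benjamini-Hochberg adjustment over all 14056 genes tested, 5 of the 10 markers fell (Lgr5, Tbx1, Nfatc1, Lgr4 and Lhx2) and 2 rose (Cd34 and Lrig1) at an adjusted p under 0.05. Sox9, Lgr6 and Tcf7l1 did not pass. Over all genes tested 30.9% were called, 12.9% lower and 18.0% higher in ALP. The libraries of the groups did not overlap for 9 of the 10 markers, the exception being Sox9, and for 75.7% of all genes tested. That count depends on the scaling for the closest genes, since by library totals alone (RPKM) Lgr6 overlapped, with 0.343 and 0.268 RPKM in ALP and 0.277 and 0.261 RPKM in control, and Sox9 did not, with 31.0 and 29.8 RPKM in ALP and 31.5 and 33.9 RPKM in control. All 10 markers passed the filter on low counts, but Cd34 passed it through its ALP libraries alone and therefore had to differ. In bulk RNA, fewer cells of a type and less RNA per cell cannot be told apart.

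Among the R-spondin receptor genes, Lgr5 had 3.53 and 1.75 CPM in ALP replicates A and B, against 13.0 and 11.1 CPM in control replicates A and B. Both ALP libraries lay far below both controls, and replicate B was the lower. Lgr5 fell by 2.18 ± 0.33 in log2 units (± gives the SE from here on, n = 2 libraries in each group, adjusted p = 0.0151), the most certain decrease of the 10 by p-value. These levels rest on 61 and 27 counts in ALP and on 230 and 194 counts in control, and the ratio of the summed counts was 0.223 with a 95% interval of 0.175 to 0.281 (exact, covering counting error only).

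Lgr4, the broadly expressed receptor of this family, had 81.2 and 43.4 CPM in ALP replicates A and B, against 136 and 121 CPM in control replicates A and B. It fell by 1.04 ± 0.29 (adjusted p = 0.043). The ALP libraries differed from each other, so leaving out ALP replicate A gave a log2 difference of -1.57 and leaving out ALP replicate B gave -0.65. Both values are decreases, but the size depends on which treated library is used.

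Lgr6, which marks the isthmus and parts of the interfollicular epidermis, had 2.37 and 1.87 CPM in ALP and 1.87 and 1.77 CPM in control. Its log2 difference was 0.23 ± 0.30 (adjusted p = 0.585), and the ratio of its 70 ALP counts to its 64 control counts was 1.17 (95% interval 0.825 to 1.67, exact, counting error only). Counting error alone leaves any ratio in that interval possible. The size of change that the test could detect also depends on the spread between libraries and was not measured. In RPKM, Lgr4 made up 95.2% and 94.3% of the 3 receptor transcripts together in the ALP libraries and 93.8% and 93.9% in the controls. The Lgr5 share of the same sum was 2.37% and 2.18% in ALP, against 5.13% and 4.94% in control. Lgr4 thus carried nearly all of the receptor transcript in every library, while the share of Lgr5 was lower in both ALP libraries than in both controls.

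Transcripts of LRIG1 and CD34, the other surface proteins of the set, rose. Lrig1 had 203 and 224 CPM in ALP replicates A and B, against 99.6 and 151 CPM in control replicates A and B, and rose by 0.77 ± 0.20 (adjusted p = 0.0375). Here the treated libraries were close together and the controls were spread, and leaving out control replicate A gave a log2 difference of 0.49, and leaving out control replicate B gave 1.11.

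Cd34, a sialomucin of bulge cells, blood progenitors and endothelium, was counted 38 and 53 times in ALP replicates A and B, against 0 and 5 times in control replicates A and B. These are 2.20 and 3.43 CPM in ALP, against 0 and 0.286 CPM in control. It rose by 4.23 ± 0.76 (adjusted p = 0.0175), and the ratio of the summed counts, 91 against 5, was 19.5 with a 95% interval of 8.07 to 61.6 (exact, counting error only). A count of 0 in control replicate A allows up to 3 counts, or 0.172 CPM before scaling. The fold is therefore poorly fixed, while both ALP libraries lay above both controls. Cd34 passed the filter on low counts through its ALP libraries alone, so that order was set by the filter. Neither the order nor the adjusted p is separate support for a rise.

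**Figure D2:**
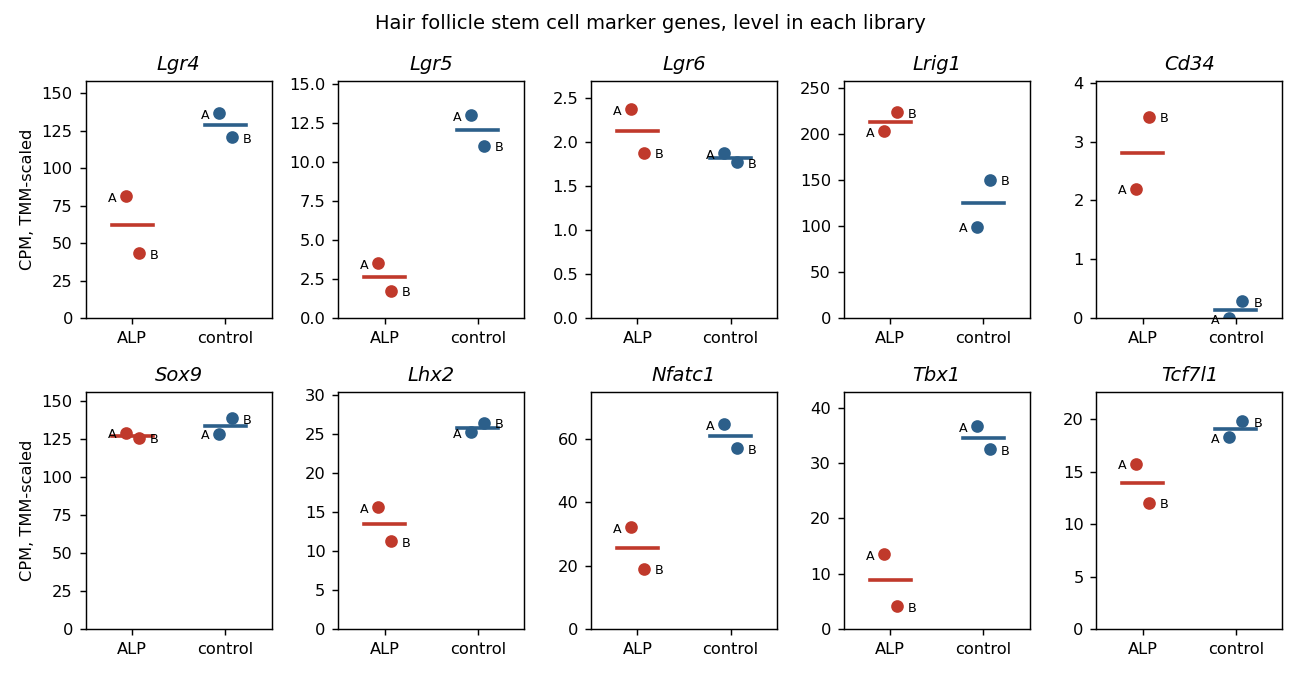
TMM-scaled CPM of each marker gene on linear axes from 0, with ALP left of control; points are libraries A and B and bars are group means. Lgr5, Lhx2, Nfatc1, Lgr4 and Tbx1 are lower in both ALP libraries, Lrig1 and Cd34 are higher, and the Sox9 libraries overlap on this scale.

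Of the transcription factor genes, Tbx1, needed for long-term self-renewal of bulge cells in mice, had 13.5 and 4.07 CPM in ALP replicates A and B, against 36.7 and 32.5 CPM in control replicates A and B. It fell by 1.96 ± 0.49 (adjusted p = 0.0357). The treated libraries differed by more than for any other marker, in that the level in ALP replicate B was 0.301 of that in ALP replicate A. Leaving out ALP replicate A gave -3.09 log2 units, and leaving out ALP replicate B gave -1.34.

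Nfatc1, the calcineurin-dependent factor that holds bulge cells quiescent downstream of BMP signals, had 32.1 and 19.0 CPM in ALP replicates A and B, against 64.6 and 57.1 CPM in control replicates A and B. It fell by 1.25 ± 0.25 (adjusted p = 0.0214). Lhx2, a LIM homeobox factor that restrains bulge cell activation, had 15.6 and 11.2 CPM in ALP and 25.3 and 26.4 CPM in control, and fell by 0.94 ± 0.19 (adjusted p = 0.0212). For both genes the groups were well separated, and Lhx2 was the most even of the 5 genes that fell. The log2 difference of Nfatc1 was -1.68 with ALP replicate A left out and -0.91 with ALP replicate B left out. That of Lhx2 was -1.21 with ALP replicate A left out and -0.72 with ALP replicate B left out.

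Tcf7l1, a TCF-family repressor of Wnt target genes also known as TCF3, had 15.7 and 12.0 CPM in ALP and 18.3 and 19.8 CPM in control. Its log2 difference was -0.46 ± 0.18 and did not pass (adjusted p = 0.0997), and it was -0.67 without ALP replicate A, where it passed (adjusted p = 0.00503), and -0.26 without ALP replicate B. Sox9, which specifies the bulge and the outer root sheath, had 129 and 126 CPM in ALP and 129 and 139 CPM in control. Its log2 difference was -0.07 ± 0.08 (adjusted p = 0.556), and it lay between -0.13 and -0.01 with each library left out. The most abundant factor gene of the set thus showed the smallest difference, with libraries of the groups overlapping in TMM-scaled CPM.

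**Figure D3:**
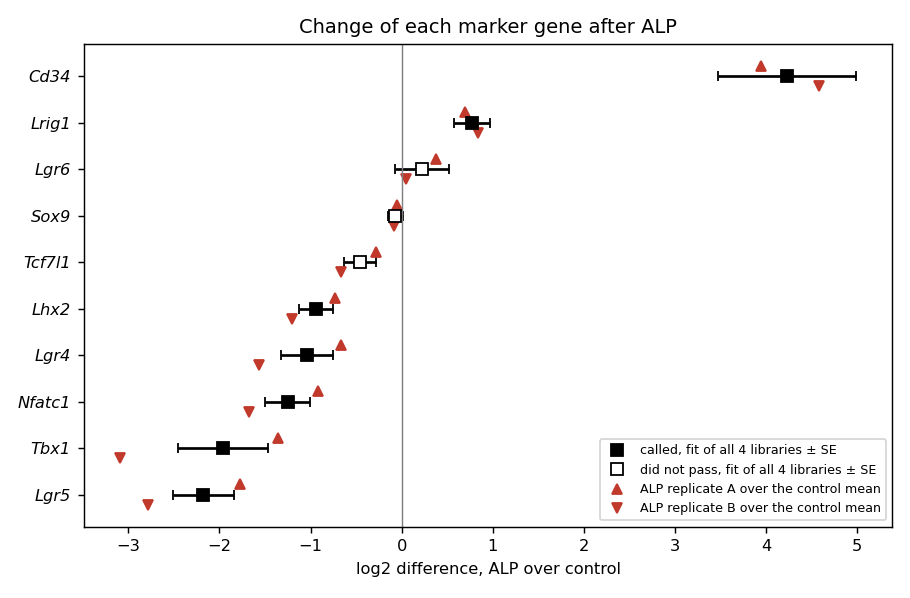
Log2 difference of each marker gene, ALP over control; squares are the fit of all 4 libraries with standard errors (filled where the adjusted p is under 0.05), and triangles are each ALP library over the control mean. Values run from -2.18 for Lgr5 to 4.23 for Cd34, and ALP replicate B lies beyond replicate A for every called gene.

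ALP replicate B was further from the controls than ALP replicate A for each of the 7 called markers. Against the control mean the log2 differences in ALP replicates A and B were -1.77 and -2.79 for Lgr5, -1.35 and -3.09 for Tbx1, -0.92 and -1.68 for Nfatc1, -0.66 and -1.57 for Lgr4 and -0.73 and -1.20 for Lhx2. They were 0.70 and 0.84 for Lrig1 and 3.94 and 4.58 for Cd34. The direction was the same in both libraries for all of these genes, so the libraries disagreed on size alone. A cause of the gap between them was not tested.

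With either control library left out, none of the markers passed edgeR's test, as was the case for all genes (0 calls). Genes at an unadjusted p under 0.05 then numbered 3380 with control replicate A left out and 4131 with control replicate B left out, against 6552 with all 4 libraries. The adjusted p-values of the 7 called markers then lay between 0.129 and 0.195 with control replicate A left out, and between 0.0566 and 0.121 with control replicate B left out. DESeq2's Wald test and limma-voom called the same 7 markers in the same directions. Of all genes, DESeq2 called 29.0% (16.7% higher and 12.3% lower) and limma-voom 33.7% (18.7% higher and 15.1% lower), and edgeR called 30.8% with RLE size factors and 29.8% with unadjusted deviances. Leaving out ALP replicate A raised the share called to 50.7% of genes (26.1% higher and 24.6% lower), and leaving out ALP replicate B gave 34.3% (19.4% higher and 14.9% lower). In the authors' deposited table the adjusted p-values of these 7 genes ran from 1.54e-06 for Lgr5 to 0.0426 for Tbx1. There Lgr6, Sox9 and Tcf7l1 did not pass (0.815, 0.754 and 0.154). The deposited log2 fold changes were those of DESeq2 here (-2.185 for Lgr5 and 4.304 for Cd34 in both). They are therefore not a separate result.

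**Figure D4:**
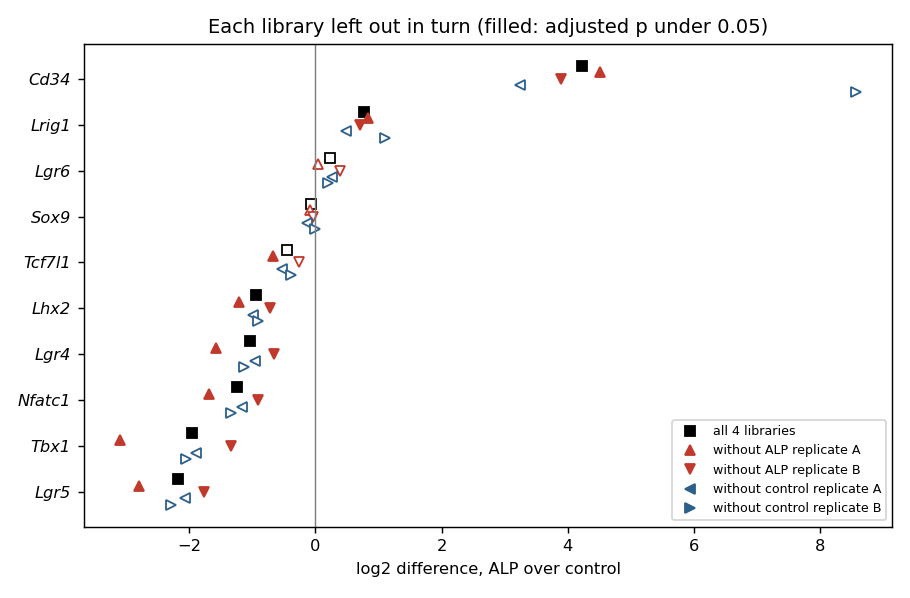
Log2 difference of each marker gene, ALP over control, from all 4 libraries and with each library left out (filled where the adjusted p is under 0.05). Signs hold in every fit, while no gene passes without either control library, and the Cd34 value of 8.56 without control replicate B is a fit against a lone library with 0 counts and no bound.

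Profiles over the 4 libraries were compared for the called marker with the smallest p-value in each direction, by the Euclidean distance of log2(CPM + 0.05) after centring each gene. Among 12263 other protein-coding genes, those closest to Lgr5 were Cxcl14, at a distance of 0.11, Zfr2 at 0.14 and 2310007B03Rik at 0.17, against a median distance of 2.39. Cxcl14, which encodes a chemokine made by keratinocytes, had 89.3 and 41.6 CPM in ALP and 298 and 253 CPM in control. Closest to Cd34 were Prl8a9, a prolactin-family gene with close paralogs, at 0.71, Gm2115 at 0.83 and Zfp57, an imprinting factor gene, at 0.97, against a median of 4.85. Zfp57 had 0.113 and 0.457 CPM in control. Like Cd34, it passed the filter on low counts through its ALP libraries alone and had to differ. With 4 libraries in 2 groups, a short distance mainly says that genes changed by a like amount.

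Related genes were grouped in 7 lists around the markers. Counting each gene once and leaving out the 10 markers, 71 of 99 genes in the table were tested. Of these 13 rose, 22 fell and 36 did not pass, while over all genes tested 18.0% rose and 12.9% fell. Their median log2 difference was -0.45, against -0.70 for the markers and 0.00 for all genes tested. Markers and lists were chosen with earlier results of these data known, so these medians are a description only. Genes that fell numbered 22 with all libraries, 39 with ALP replicate A left out and 33 with ALP replicate B left out, and no gene of any list passed without either control library.

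Of 16 other genes of the bulge and hair germ, 13 were tested, 2 rose and 5 fell (median -0.91). Postn, which encodes the matrix protein periostin, had 4.92 and 3.23 CPM in ALP and 14.7 and 12.3 CPM in control and fell by 1.72 ± 0.25 (adjusted p = 0.0151). Hopx, a homeodomain-only cofactor of bulge and other stem cells, fell to 6.31 and 6.21 CPM in ALP, against 14.2 and 10.8 CPM in control (adjusted p = 0.0234). Gli1, Gli2 and Foxp1 also fell. Gli1 and Gli2 encode transcription factors of Hedgehog signalling, and Gli1 no longer passed with unadjusted deviances (adjusted p = 0.0517) or by DESeq2 (adjusted p = 0.0511).

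Runx1, a factor that promotes activation of follicle stem cells, had 159 and 164 CPM in ALP and 124 and 125 CPM in control and rose by 0.37 ± 0.08 (adjusted p = 0.024). Dkk3, of the Dickkopf family, rose by 1.55 ± 0.33 (adjusted p = 0.0252). Krt15, the keratin most used to mark bulge and basal stem cells, had 58.4 and 1.75 CPM in ALP replicates A and B, against 251 and 201 CPM in control. Both ALP values were lower, but the treated libraries differed so widely that the log2 difference of -2.90 ± 1.22 did not pass (adjusted p = 0.12). In this list 9 genes fell without ALP replicate A, and 8 fell without ALP replicate B and by limma-voom. Krt15 is named after its values were seen, as a keratin marker of the bulge. Krt19, another keratin gene of the list, had at most 6 counts in any library, Cd200 at most 10 and Fgf18 at most 6. These genes were not tested. Cdh3 (-0.04 ± 0.08, adjusted p = 0.703) and Foxc1 (0.12 ± 0.14, adjusted p = 0.542) did not pass. Gas1, Ptch1 and Nfib had negative log2 differences and also did not pass.

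In the list for the upper follicle and sebaceous gland, 5 of 10 genes were tested, and 3 rose and 0 fell (median 0.34). Plet1, an isthmus marker, had 129 and 163 CPM in ALP and 49.7 and 57.0 CPM in control and rose by 1.45 ± 0.14 (adjusted p = 0.0149). Prdm1, which encodes BLIMP1, rose by 1.32 ± 0.30 (adjusted p = 0.0291), and Scd1, a desaturase gene abundant in sebocytes, rose by 0.34 ± 0.10 (adjusted p = 0.0475). Mgst1 measured 18.8 and 3.75 CPM in ALP and 51.0 and 47.0 CPM in control and did not pass (adjusted p = 0.0549). Without ALP replicate A 2 genes of this list fell, and 1 did without ALP replicate B and by limma-voom. Of the 3 that rose, Scd1 no longer passed with library totals alone (adjusted p = 0.0628) or with unadjusted deviances (adjusted p = 0.0523).

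The hair matrix and shaft list had 8 of 14 genes tested, of which 5 fell and 0 rose (median -1.10). Msx2, a homeobox factor of the hair matrix, had 27.8 and 18.4 CPM in ALP and 49.7 and 47.8 CPM in control and fell by 1.08 ± 0.20 (adjusted p = 0.0193). Foxn1, whose loss gives the nude mouse, fell by 0.80 ± 0.16 (adjusted p = 0.023), Dlx3 by 1.71 ± 0.45 (adjusted p = 0.0397) and Tchh, which encodes trichohyalin of the inner root sheath, by 2.37 ± 0.63 (adjusted p = 0.0411). Hair keratin genes were near the floor, with Krt31 and Krt35 at 0 counts in every library, as was Shh.

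Around the R-spondin receptors, 11 of 18 genes of the pathway list were tested, and 2 fell and 0 rose (median -0.57). Both that fell encode Groucho-type corepressors that TCF factors recruit. Tle3 had 170 and 111 CPM in ALP and 255 and 263 CPM in control and fell by 0.88 ± 0.20 (adjusted p = 0.0274), and Tle2 fell by 1.80 ± 0.51 (adjusted p = 0.0473). The other 9 genes did not pass and lay on both sides of 0. Lef1, a TCF-family factor of Wnt target activation, had 35 and 31 counts in ALP and 17 and 18 counts in control (log2 difference 1.01 ± 0.31, adjusted p = 0.0585), and Rnf43 had 28.1 and 17.9 CPM in ALP and 40.1 and 35.4 CPM in control (-0.71 ± 0.22, adjusted p = 0.06). The feedback gene Axin2 had a log2 difference of -0.57 ± 0.20 (adjusted p = 0.0784), Tcf7 had 0.55 ± 0.28 (adjusted p = 0.178) and Znrf3, the other ligase gene, had 0.01 ± 0.13 (adjusted p = 0.956). The corepressor genes Tle1 (-0.01 ± 0.13, adjusted p = 0.962) and Tle4 (-0.90 ± 0.39, adjusted p = 0.128) also did not pass, so the family did not fall as a whole. The ligand genes Rspo1, Rspo2, Rspo3 and Rspo4 had at most 6 counts in any library. In this list 6 genes fell without ALP replicate A, 4 fell without ALP replicate B, by DESeq2 and by limma-voom, and 1 fell with unadjusted deviances, where Tle2 no longer passed (adjusted p = 0.0522).

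For the partners of LRIG1 and NFATC1, 13 of 15 genes were tested, and 2 rose and 4 fell (median -0.08). Met, the hepatocyte growth factor receptor gene and a receptor that LRIG1 restrains, had 385 and 507 CPM in ALP and 163 and 194 CPM in control and rose by 1.32 ± 0.16 (adjusted p = 0.0149). Erbb3 fell by 1.53 ± 0.42 (adjusted p = 0.0432, but 0.0537 by DESeq2), whereas Egfr had a log2 difference of -0.02 ± 0.08 (adjusted p = 0.888). Genes of receptors that LRIG1 can restrain thus did not share a direction.

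On the NFATC1 side, Rcan1, an inhibitor of calcineurin whose gene NFAT factors induce, had 57.2 and 34.9 CPM in ALP and 91.5 and 84.9 CPM in control and fell by 0.94 ± 0.23 (adjusted p = 0.0338). Cdk4, which NFATC1 represses in bulge cells, rose by 0.56 ± 0.12 (adjusted p = 0.0264). Prlr, the prolactin receptor gene, whose expression calcineurin and NFATC1 regulate in mouse follicle stem cells, fell by 2.62 ± 0.58 (adjusted p = 0.0268) to 1.27 and 0.194 CPM in ALP, against 5.10 and 4.28 CPM in control. Ppp3ca, a catalytic calcineurin gene, fell by 0.32 ± 0.08 (adjusted p = 0.0371). The other calcineurin genes tested did not pass. They were Ppp3cb (-0.08 ± 0.12, adjusted p = 0.606), Ppp3cc (0.37 ± 0.42, adjusted p = 0.523) and Ppp3r1 (-0.06 ± 0.08, adjusted p = 0.614).

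Among paralogs of the markers, 12 of 17 genes were tested, and 1 rose and 3 fell (median -0.18). Lrig2 and Lrig3 fell by 0.54 ± 0.12 (adjusted p = 0.025) and 0.75 ± 0.21 (adjusted p = 0.046), while Lrig1 rose. Podxl, which encodes podocalyxin, a sialomucin of the CD34 family, had 1.74 and 3.88 CPM in ALP and 0.680 and 0.171 CPM in control and rose by 2.68 ± 0.68 (adjusted p = 0.0368). Nfat5 fell by 0.40 ± 0.09 (adjusted p = 0.0299). Nfatc3 had a log2 difference of 0.04 ± 0.08 (adjusted p = 0.747).

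Basal epidermal genes moved in both directions, with 5 of 13 higher and 3 lower (median -0.30). Itga3, an integrin gene, had 1341 and 1835 CPM in ALP and 408 and 514 CPM in control and rose by 1.78 ± 0.20 (adjusted p = 0.0149). Itgb4, Lamb3 and Itgb1, which encode other parts of the adhesion to the basement membrane, rose by 1.14 ± 0.15, 0.97 ± 0.16 and 0.85 ± 0.14 (adjusted p = 0.0149, 0.016 and 0.0163). Lower in ALP were Dst, Col17a1 and Trp63, and 7 genes fell without ALP replicate A, 6 without ALP replicate B and by DESeq2, and 5 by limma-voom and with unadjusted deviances.

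**Figure D5:**
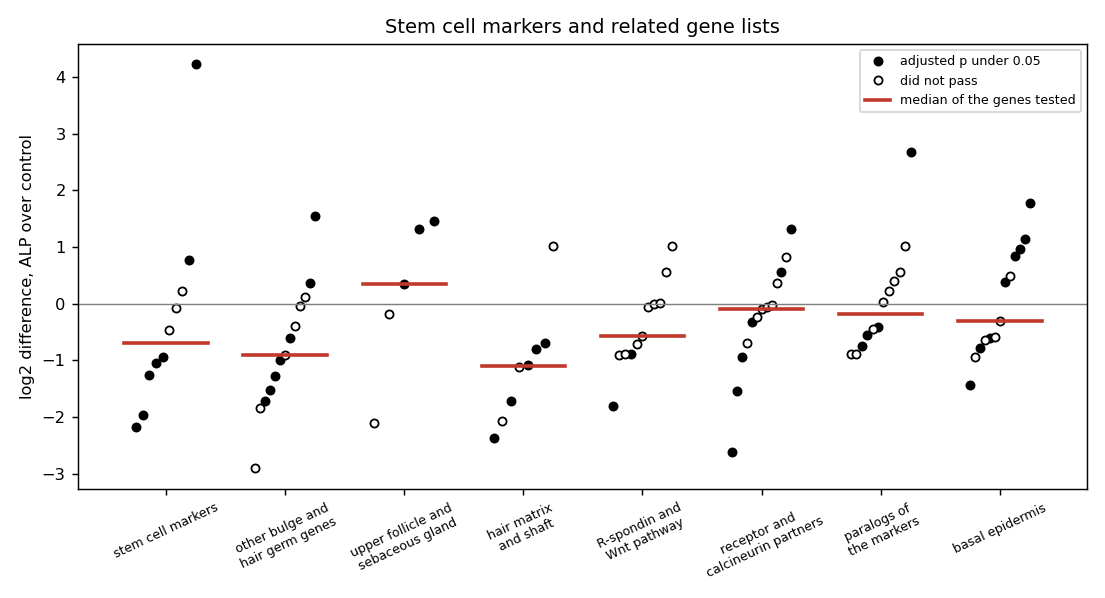
Log2 difference, ALP over control, of the tested genes of the marker set and of 7 related lists; points are genes (filled where the adjusted p is under 0.05) and bars are list medians. The medians run from -1.10 for hair matrix and shaft genes to 0.34 for the upper follicle and sebaceous gland.

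Since Cd34 also marks endothelium and blood progenitors, transcripts of other cell types were read beside it. The summed level of 8 endothelial genes was 14.8 and 25.2 CPM in the ALP libraries and 6.91 and 8.23 CPM in the controls. In ALP that sum came mostly from Pecam1, with 8.33 and 13.8 CPM, and from Kdr, with 6.08 and 11.0 CPM. In control Pecam1 had 3.96 and 5.54 CPM, and Kdr, with 0.510 and 1.03 CPM, lay below Tek, with 1.59 and 1.14 CPM. Pecam1 and Kdr rose (adjusted p = 0.0395 and 0.015). Tek had 4 and 3 counts in ALP and 28 and 20 counts in control, and passed the filter on low counts through its control libraries alone, so that it had to differ. Vwf, which was not tested, had 2 and 3 counts in ALP and 12 and 6 counts in control. Emcn and Cldn5 were at 0 counts in every library, and Cdh5 and Plvap had at most 3. The part of endothelial transcripts in the Cd34 result was not tested.

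The 8 leukocyte genes summed to 7.46 and 5.95 CPM in ALP and 9.80 and 10.5 CPM in control, most of it Cd68, with Cd3e and H2-Aa at 0 counts in every library and Ptprc at 1 count in all 4 together. Fibroblast genes summed to 9.72 and 6.92 CPM in ALP and 19.1 and 15.5 CPM in control. Dcn, which encodes decorin, had 3.07 and 0.517 CPM of that sum in ALP and 13.1 and 8.57 CPM in control and fell (adjusted p = 0.0332), and without it the sums were 6.65 and 6.40 CPM in ALP and 5.95 and 6.97 CPM in control. Melanocyte genes, of which Tyrp1 was the most abundant by count over all 4 libraries, summed to 71.0 and 58.4 CPM in ALP and 74.0 and 68.2 CPM in control. Of these genes Mitf fell (4.86 and 4.14 CPM in ALP, 11.3 and 10.5 CPM in control, adjusted p = 0.0151), and the other 6 did not pass. The part of these transcripts in the marker results was not tested.

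Gene position and counting leave few doubts over which gene was read. On GRCm38, Lgr4 lies on chromosome 2 (109917647 to 110014257), Lgr5 on chromosome 10 (115450311 to 115587780), Lrig1 on chromosome 6 (94604529 to 94700158), Cd34 on chromosome 1 (194938819 to 194961279) and Tbx1 on chromosome 16 (18580979 to 18590671). Lgr6 lies on chromosome 1 (134983301 to 135105276), Sox9 on chromosome 11 (112782224 to 112787760), Lhx2 on chromosome 2 (38339281 to 38369733), Nfatc1 on chromosome 18 (80606205 to 80713071) and Tcf7l1 on chromosome 6 (72626378 to 72789254). Counts cover all exons of a gene, untranslated parts included. Exons of 3 markers overlap those of genes on the opposite strand, over 2.58% of the exon bases of Lrig1 (Slc25a26), 2.03% of Cd34 (Gm16897) and 4.56% of Tcf7l1 (Gm15401). Over the 4 libraries Slc25a26 had 428 counts against 11372 for Lrig1, Gm16897 had 4 against 96 for Cd34, and Gm15401 had 7 against 1128 for Tcf7l1. Whether counting used strand is not stated in the labels, and reads in these overlaps cannot be assigned to a strand.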

How the data were processed

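Total RNA gave 4 libraries, 2 per group. The submitters' processing notes name HISAT2 2.0.5, featureCounts 1.5.0-p3 and the build GRCh38. The identifiers are mouse ones, 99.9% of them in GENCODE M21 (GRCm38). The authors deposited raw counts per gene and library and a normalized signal as 1 mean per group (not used). They also deposited log2 fold changes and p-values of their own, whose test is not stated. For the markers these log2 fold changes were nearly equal to those of DESeq2 here. The columns' replicate numbers differ from the labels', so count columns were assigned to groups only, and 4 other per-library columns were not used. In both groups the highest column number exceeds the number of libraries. Whether further libraries were made and left out is not stated in the labels. RPKM was computed from counts, library totals and the deposited gene length, in place of a deposited value as first planned. In 27 rows a symbol turned into a date was restored by gene identifier.

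Counts were analysed with edgeR 4.0.16 in R 4.3.3. Genes were kept by filterByExpr (minimum count 10, minimum total 15), scaled by TMM, and tested two-sided by the quasi-likelihood F test with bias-adjusted deviances, with Benjamini-Hochberg adjustment over 14056 genes and 2 residual degrees of freedom. Standard errors are the log2 difference over the square root of F. Alternatives used DESeq2 1.42.0 (on all genes with a count), limma 3.58.1, other scalings, no filter and each library left out. Intervals are exact binomial ones and, like the limit of 3 counts for a count of 0, cover counting error only. The markers and lists were chosen with earlier results of these data known. Named genes were all 10 markers, up to 4 genes per list, taken by lowest p-value, the 3 closest profiles and the most abundant gene of each other cell type described (1 further list is not reported here); all other genes named, such as Krt15, were chosen after their values were seen.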

Additional observations from a re-analysis of the deposited data

How the results depend on the processing

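The called markers, 2 higher and 5 lower in ALP, kept their call and direction with RLE size factors, library totals alone, unadjusted deviances, DESeq2, limma-voom and without either ALP library (6 fell without ALP replicate A, Tcf7l1 being added). Bias-adjusted deviances were chosen over unadjusted ones after both had been run, with 4350 and 4188 genes called, and the unadjusted fit is an alternative added after seeing the data. Without the filter on low counts edgeR called 0 genes (7068 had an unadjusted p under 0.05), and so 0 markers and 0 related genes. DESeq2, also run on all genes with a count, gave adjusted p-values for 14007 genes and called 4056. On the filtered genes limma-voom called 4741. The cause of the 0 calls by edgeR was not tested. With each library left out, genes changed ranged from 0 to 7518, genes higher from 0 to 3872, genes lower from 0 to 3646, markers higher from 0 to 2, markers lower from 0 to 6, related genes higher from 0 to 14 and related genes lower from 0 to 39. No value changed sign. Fits without a control library rest on the spread of the ALP pair alone, and those without an ALP library on that of the control pair. The 20 marker levels, 10 per group, moved by less than 1 SD under TMM-scaled counts per kilobase. No paired analysis was possible because the column numbers of the groups share a single value. Depth limits Cd34, Lgr5 and Lgr6, with at most 53, 230 and 41 counts in a library.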
